A study of Arabidopsis thaliana with 12 samples.

Results

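The peaks described here are the stretches of Arabidopsis thaliana chromatin carrying dimethylated lysine 4 of histone H3 (H3K4me2) that lie in the pericentromeres, the repeat-rich regions on either side of each centromere. They were taken as every H3K4me2 peak lying wholly within 1 window per chromosome, which runs from 11.5 to 17.7 Mb on chromosome 1, from 1.1 to 7.2 Mb on chromosome 2, from 10.3 to 17.3 Mb on chromosome 3, from 1.5 to 6.3 Mb on chromosome 4 and from 9 to 16 Mb on chromosome 5 (TAIR10). The windows span 31.1 Mb, or 26.1% of the length of the 5 chromosomes. They hold 1728 of the 20585 wild-type peaks (8.39%) and 1360 of the 16650 peaks of the atx3/4/5 mutant. The chromosome arms hold 18856 and 15290 peaks, and 1 wild-type peak crosses a window limit.

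The material was rosette leaf of Col-0 plants aged 4 weeks, grown with 16 h light (22 °C) and 8 h dark (20 °C). Chromatin immunoprecipitation with sequencing (ChIP-seq) was made from wild type and the atx3/4/5 mutant with antibodies to H3K4me2 and to trimethylated H3K4 (H3K4me3), and from the sdg2 mutant for H3K4me3, with 1 library per genotype and antibody and 1 input per genotype. RNA sequencing used 2 libraries each of wild type and atx3/4/5. ATX3, ATX4 and ATX5 are putative H3K4 methyltransferases and SDG2 is known for placing H3K4me3. The labels name no alleles and do not say how many plants were pooled.

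Each peak list came from 1 library, so the difference between genotypes has no replicate check and no test was made on peaks. The intervals given are exact 95% intervals (Clopper-Pearson for shares), cover counting error only, and treat peaks as independent although neighbours share a library. Read depth is unknown. In the authors' deposited table the FPKM of the targeted genes, in wild type and then in the mutant, was 4.17 and 4.38 for ATX3 (listed as SDG14), 1.05 and 2.88 for ATX4 (SDG16) and 3.93 and 3.76 for ATX5 (SDG29), and none passed the threshold. A lesion that leaves a transcript would not show in these values, so RNA gives no check of the genotype, and atx3/4/5 stands for the libraries so labelled. SDG2, not targeted in atx3/4/5, had an FPKM of 0.884 in wild type and 3.55 in that mutant (q = 0.00184 in the authors' deposited table). The 6 rosette leaf markers were among the abundant transcripts (wild-type FPKM 2397 to 16497), whereas the 6 matched markers of root hair, seed and pollen were at or near 0.

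Pericentromeric chromatin in Arabidopsis is largely heterochromatin: it is rich in transposable elements, carries dense DNA methylation and dimethylated lysine 9 of H3, and holds few active genes. H3K4 methylation marks the opposite state. H3K4me3 sits near the starts of transcribed genes, and H3K4me2 is found over gene starts and bodies, including genes with little transcription.

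H3K4me2 peaks were sparse in the windows. Wild type had 55.6 peaks per Mb there and 214 per Mb in the arms, so that the arms were 3.85-fold denser (3.67 to 4.05). The ratio ran from 3.38 on chromosome 5 to 4.35 on chromosome 4. Peaks covered 2.04 Mb of the windows (6.57%) and 24.1 Mb of the arms (27.4%). In the mutant the arms were 3.97-fold denser, and for wild-type H3K4me3 peaks they were 3.69-fold denser.

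The windows also hold fewer genes that code for proteins, 102 per Mb against 267 per Mb. Per 100 protein-coding loci the windows had 54.6 peaks and the arms 80.2, which is a 1.47-fold difference and leaves a smaller gap than that per Mb. Per gene locus of any class the arms were 3.02-fold denser, because the windows carry 3346 pseudogene loci against 565 in the arms. In RefSeq this class takes in genes of transposable elements.

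Peak density fell stepwise from the window limits inwards. It was 171 per Mb in the last 0.5 Mb of the arms, 114 per Mb in the first 0.5 Mb of the windows, 64.4 per Mb at 1 to 1.5 Mb, 22.9 per Mb at 2 to 2.5 Mb and 10 per Mb (23 peaks) beyond 3 Mb. Over the same bins pseudogene loci went from 13.2 to 45.4, 90.4, 151 and 156 per Mb. Most window peaks thus lay near the limits: the first 0.5 Mb held 570 of the 1728 and the next 0.5 Mb 505. Protein-coding loci in these outer parts numbered 199 and 165 per Mb, against 45.4 and 57.6 pseudogene loci per Mb. The share of protein-coding loci with a peak was 60.9% outside the limit, 47.7% just inside it and 26% (14.6 to 40.3) in the deepest bin. The share of coding loci with a wild-type FPKM (fragments scaled to transcript length and library size) of at least 1 followed it closely, at 60.6%, 48.9% and 28%.

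**Figure D1:**
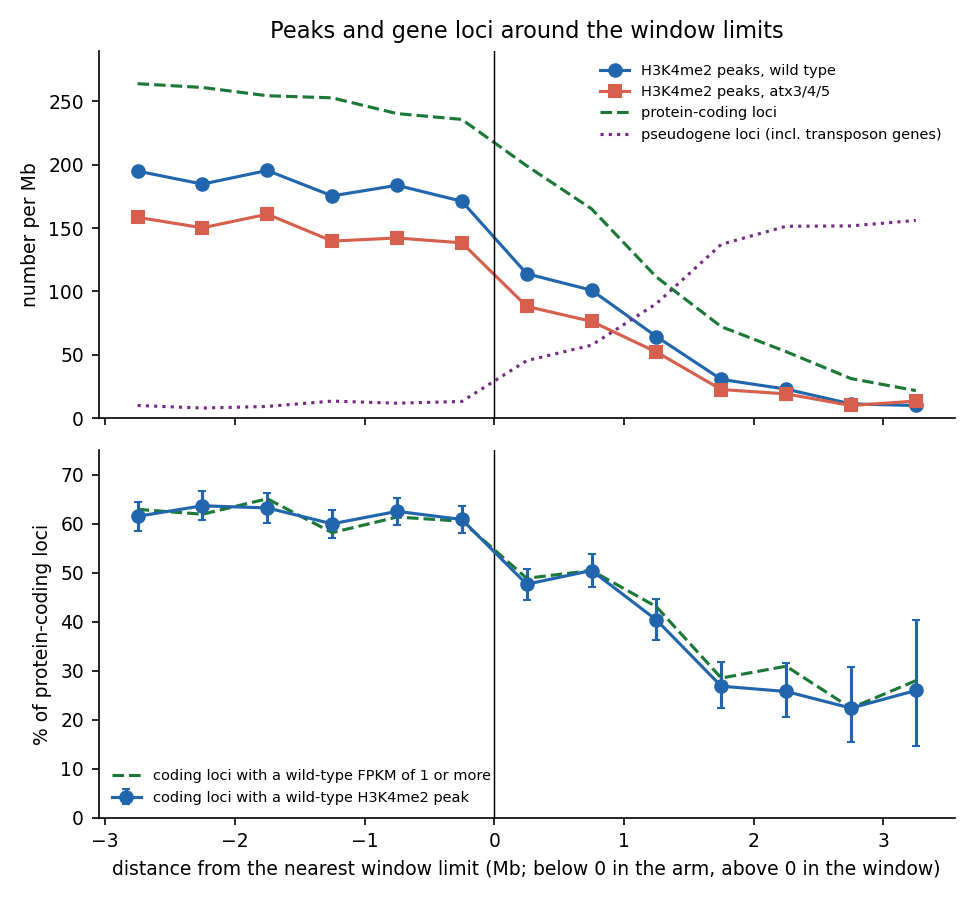
Upper panel, H3K4me2 peaks in wild type and atx3/4/5, protein-coding loci and pseudogene loci per Mb (y axis) in bins of 0.5 Mb by distance from the nearest window limit (x axis, Mb). Lower panel, percent of protein-coding loci with a wild-type peak, with exact 95% intervals, and percent with a wild-type FPKM of at least 1. Wild-type density goes from 171 per Mb just outside the windows to 10 per Mb beyond 3 Mb inside.

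The spacing of the peaks was uneven. The median gap between neighbouring wild-type peaks was 4381 bp in the windows and 2028 bp in the arms. Gaps over 50 kb numbered 101 of 1723 in the windows (5.86%) and 12 of 18846 in the arms. On every chromosome the longest stretch without a wild-type H3K4me2 peak lay in the window. The longest of all, on chromosome 1 from 14296205 to 15891324, spanned 1595 kb and 206 gene loci, of which 184 were pseudogenes and 12 coded for proteins. It still held 4 wild-type H3K4me3 peaks.

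The other stretches measured 592 kb on chromosome 3, 469 kb on chromosome 2, 462 kb on chromosome 5 and 439 kb on chromosome 4. The stretch on chromosome 2 differed in content, with 68 protein-coding and 49 pseudogene loci, and 15 loci of any class reached an FPKM of 1. Reads with several matches in the genome could affect both the peaks and the FPKM there, which was not tested. It ended at the peak over MCM5, a subunit of the replicative helicase (score 849.28). The stretch on chromosome 3 ended at a peak of 2614 bp over ARP6, a subunit of the complex that deposits the histone variant H2A.Z, and its neighbour AT3G33530.

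Window peaks were slightly narrower and weaker than arm peaks. The median width was 1028 bp (989 to 1061) in the windows and 1131 bp (1121 to 1142) in the arms, and the difference ran from -37 bp on chromosome 1 to -136 bp on chromosome 5. The median score of the authors' peak caller, which orders peaks within a list, was 163 (153 to 174) in the windows and 201 (197 to 205) in the arms, and was lower in the windows on all 5 chromosomes. In the mutant list the median widths were 882 bp and 926 bp, and on chromosome 4 the window median was the higher by 4 bp.

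Strong peaks were also present in the windows. The highest score, 3100, belonged to a peak over the pseudogene AT3G43690 (chromosome 3, 15598092 to 15600137), whose FPKM was 1.80 in wild type. Next came 4CL8, named for the coumarate-CoA ligase family (2844.75), and the pseudogene AT3G29776, with a peak of 4560 bp (2710.11). The list of 10 went on with EMB2770, a splicing factor gene (2669.78), AT1G47655 (2647.23), the GATA factor gene GATA12 (2413.53), the ubiquitin ligase gene CNI1 (2228.38), AT4G09160 (2217.44), AT1G34160 (2172.98) and VIM3 (2160.42), of a family of ubiquitin ligases that bind methylated DNA. Of these 10 peaks, 9 still overlapped a mutant peak, and the exception was GATA12. In the authors' deposited table EMB2770 was higher in the mutant (5.03 to 13.1, q = 0.0441) and AT1G47655 lower (20.9 to 5.91, q = 0.0133), and the RNA of the other 8 was not called.

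The 5 widest peaks each lay over a single locus. They were those of the callose synthase genes GSL1 (4926 bp) and GSL05 (4326 bp), of AT3G29776 (4560 bp), of AT3G45830 (4039 bp) and of the oxoprolinase gene OXP1 (3888 bp). In the mutant the GSL1 peak was a single peak of 3040 bp that covered 61.6% of its bases. Each of the other 4 was met by 2 separate mutant peaks.

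Most window peaks lay on genes. A gene locus was overlapped by at least 1 bp by 1656 of 1728 peaks (95.8%, 94.8 to 96.7), against 99.2% in the arms. Protein-coding loci were under 86.6% of window peaks and 97.8% of arm peaks. A further 146 window peaks (8.45%) touched pseudogenes but no coding locus, against 1.09% of arm peaks, and 72 (4.17%) touched no locus, against 0.838%.

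Read from the genes, 1319 of 3165 protein-coding loci in the windows had a peak (41.7%, 39.9 to 43.4), against 68.3% in the arms (67.7 to 68.9). Among pseudogenes 84 of 3346 had one in the windows (2.51%) and 95 of 565 in the arms (16.8%). Among transcribed pseudogenes the shares were 10.4% and 29.5%. Pseudogene loci with a peak could be transcribed: the Sadhu retroposon SADHU4-1 had an FPKM of 26.0 in wild type and 6.20 in the mutant (q = 0.00325 in the authors' deposited table) under a peak with a score of 1183.36. The others of the 5 most abundant were AT2G04110, AT2G13975, AT4G08220 and AT2G06950, with wild-type FPKM of 22.9, 20.3, 16.0 and 12.4 in the authors' deposited table.

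Coding loci in the windows were also less transcribed: 43.2% had a wild-type FPKM of at least 1, against 65.2% in the arms. At like FPKM the share with an H3K4me2 peak was still lower in the windows in each of 6 bins. It was 10.5% against 25.6% for loci at an FPKM of 0, 42.6% against 62.9% up to an FPKM of 1, and 74.1% against 83.7% from 1 to 5. From 5 to 20 it was 77.4% against 85.2%, from 20 to 100 71.0% against 79.5%, and above 100 55.3% against 63.7%, where the intervals met (47.0 to 63.3 and 61.1 to 66.1). Weighting the arm loci to the FPKM of the window loci gave 54.6%, and weighting them to FPKM and locus length gave 53.3%, against the 41.7% observed.

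H3K4me3 showed a smaller gap in percentage points at like FPKM, and the gap lay mainly in the loci of low FPKM. In the windows 39.8% of coding loci (38.1 to 41.5) had a wild-type H3K4me3 peak, and the arms weighted to FPKM gave 43.9%. The share was 2.36% against 5.82% at an FPKM of 0 and 19.5% against 30.2% up to 1. Above an FPKM of 1 the H3K4me3 shares lay close together in all 4 bins, at 69.3% against 72.1% from 1 to 5, 85.5% against 88.7% from 5 to 20, 91.6% against 94.3% from 20 to 100 and 95.4% against 94.8% above 100. Of coding loci at an FPKM of at least 1, 16.3% of 1366 in the windows (14.4 to 18.4) carried H3K4me3 without H3K4me2, against 12.0% of 15333 in the arms. Both marks were present at 67.2% and 73.9%, H3K4me2 alone at 5.12% and 7.33%, and neither mark at 11.3% and 6.79%. How reads with several matches in the genome were treated is not stated in the labels, and the part of repeats in these shares was not tested.

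**Figure D2:**
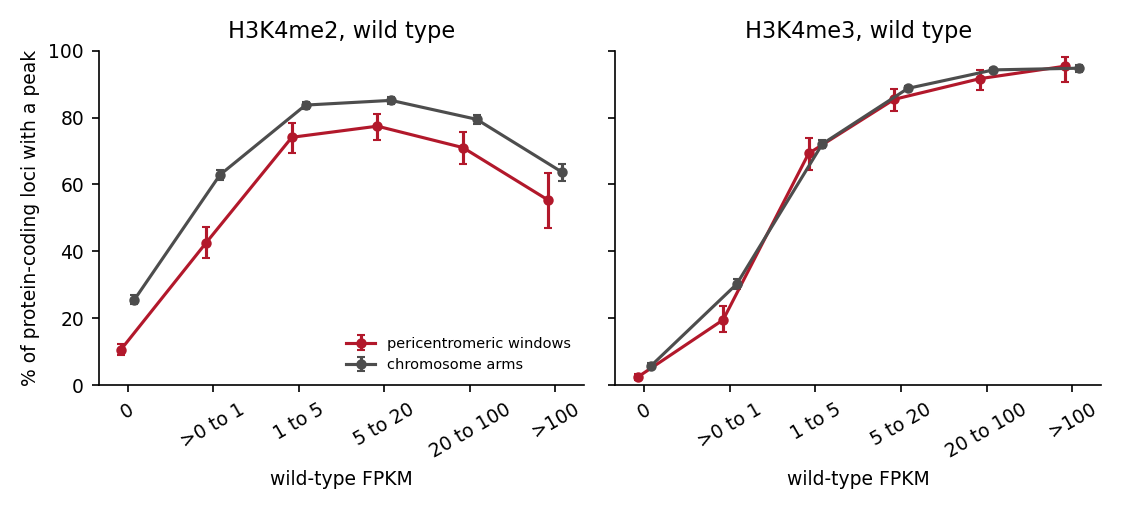
Percent of protein-coding loci with a wild-type H3K4me2 peak (left) and H3K4me3 peak (right) on the y axis, by wild-type FPKM bin (x axis), in the windows and the arms, with exact 95% intervals. The H3K4me2 shares are lower in the windows in every bin, and the H3K4me3 shares nearly coincide above an FPKM of 1.

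H3K4me3 was a common but not constant companion of the window peaks. Of the 1728 wild-type H3K4me2 peaks, 971 overlapped a wild-type H3K4me3 peak (56.2%, 53.8 to 58.5), against 61.3% in the arms (60.6 to 61.9). Chromosome 3 had the lowest share, 47.4% of 388 peaks, and chromosome 2 the highest, 63.0% of 292. Without chromosome 3 the share was 58.7%. Peaks over pseudogenes alone overlapped H3K4me3 in 28.8% of cases, and those over no locus in 22.2%.

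In atx3/4/5, 642 of the 1728 window peaks were absent, meaning that no mutant H3K4me2 peak overlapped them by even 1 bp (37.2%, 34.9 to 39.5). Over all wild-type peaks 31.5% were absent, and 31.0% in the arms. The share was higher in the windows than in the arms on each chromosome, from 34.6% on chromosome 2 to 39.9% on chromosome 3. Absence went with low score: the median score was 101 for absent and 218 for kept window peaks. With arm peaks weighted to the window scores the arm share was 34.9%, which left 2.28 percentage points, with an interval that takes in 0 (-0.00166 to 4.61, counting error of the window share only).

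By score bin the shares fell from 68.2% of window peaks in the weakest of 10 bins to 9.25% in the strongest, and from 71.0% to 9.45% of arm peaks. The window share stood farthest above the arm share in the eighth bin (20.2% against 12.8%) and lay below it in the first, the third and the tenth bin. Where a mutant peak within 500 bp counted as shared, 32.2% of window peaks were absent and the weighted difference was 4.68 points (2.48 to 6.94). The lower end of its interval also lay above 0 off a ribosomal RNA repeat (0.00586), without chromosome 2 (0.0357) and without chromosome 4 (0.185). In all other settings it lay below 0, and with windows narrowed by 0.5 Mb the difference was 0.949 points. Whether the interval takes in 0 thus depended on the setting.

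**Figure D3:**
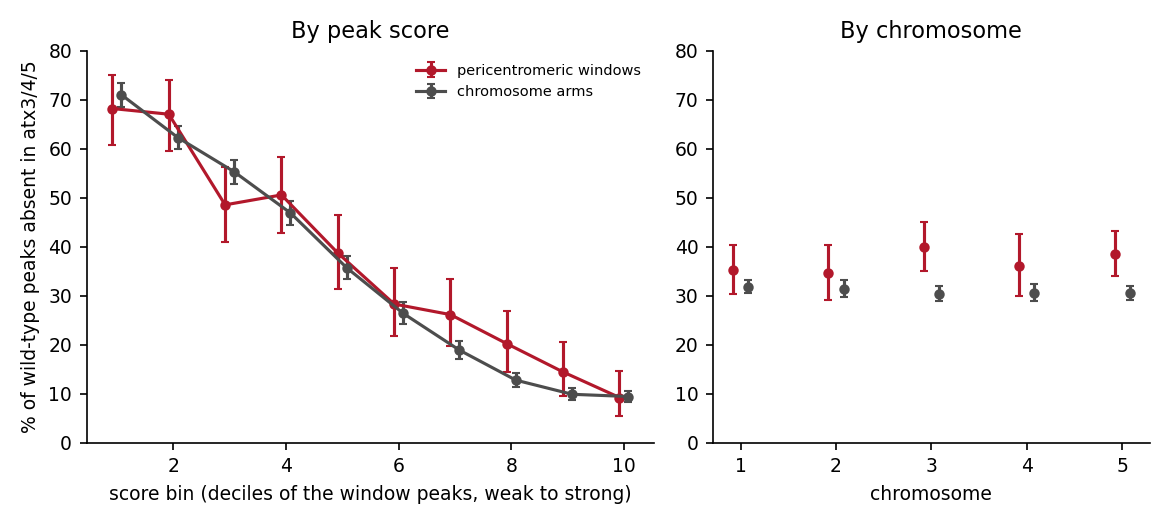
Percent of wild-type H3K4me2 peaks absent in atx3/4/5 (y axis), left by score bin set by the deciles of the window peaks and right by chromosome, in the windows and the arms, with exact 95% intervals of counting error. Absence falls with score in both, from 68.2% to 9.25% in the windows.

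Absence also differed with gene content and with H3K4me3. Of window peaks over coding loci 35.3% were absent, and of those over pseudogenes alone 34.9% of 146 (27.2 to 43.3). Of those over no locus 55 of 72 were absent (76.4%, 64.9 to 85.6), close to the 76.6% of such peaks in the arms. Of window peaks with wild-type H3K4me3 24.8% were absent, and of those without it 53.0%, beside 17.9% and 51.8% in the arms. Among window peaks above the median score of all wild-type peaks these shares were 9.41% of 489 and 35.9% of 234. The arms gave 6.78% and 32.1% there.

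H3K4me3 mostly outlasted H3K4me2. Of the 241 absent peaks that had overlapped wild-type H3K4me3, 180 (74.7%) overlapped an H3K4me3 peak in atx3/4/5, against 94.4% of the kept peaks. The arms were alike, at 73.0% and 93.1%. Counted by itself, 11.0% of the 1267 wild-type H3K4me3 peaks of the windows (9.30 to 12.8) had no atx3/4/5 H3K4me3 peak and 10.9% had no sdg2 peak, where the shares over all peaks were 9.84% and 9.4%.

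The strongest absent peak was that of GATA12 (chromosome 5, 9004218 to 9005650, 1433 bp), just inside the window limit at 9 Mb. Its H3K4me3 peak was absent in atx3/4/5 and present in sdg2, and its FPKM was 4.22 in wild type and 1.32 in the mutant (q = 0.0557 in the authors' deposited table). Next came the peaks over AT1G32860 (1774.49), AT5G38300 (1374.54) and AT5G39090 (1030.06). AT1G32860 and AT5G38300 also lost their H3K4me3 peak in atx3/4/5 and kept it in sdg2, whereas AT5G39090 kept it in both. The Pumilio RNA-binding protein genes PUM9 (950.11) and PUM10 (873.38), whose FPKM values were 0.163 and 0 in wild type, had absent H3K4me2 peaks that overlapped no wild-type H3K4me3. PUM10 also had a weak gained peak over the same locus in the mutant (score 66.77). The remaining members of the 10 were AT5G37460 (876.41) and 3 peaks over no locus, of which that on chromosome 3 from 11897459 to 11898240 (998.04) lay 6026 bp from the nearest gene.

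Kept peaks were narrowed. Of the 1086 kept window peaks, 902 (83.1%) were narrower in the mutant, 94 (8.66%) were met by more than 1 mutant peak, and the median share of bases still covered was 84.5% (82.9 to 85.9). The median share in the arms was 84.0%. In all, mutant H3K4me2 peaks covered 1.33 Mb of the windows, 65.3% of the wild-type length, and 66.2% of it in the arms. For H3K4me3 the figures were 93.9% and 91.2%.

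The mutant list also held peaks with no counterpart in wild type, called gained here. They made up 188 of the 1360 window peaks (13.8%, 12.0 to 15.8), against 9.73% of all mutant peaks and 9.37% of the arm peaks (8.91 to 9.84). Most were weak, with a median score of 68.3 and a median width of 635 bp, against 125 and 926 bp for the other mutant window peaks. The median score of all mutant peaks was also lower in the windows (114) than in the arms (129). The gained shares were not compared at like scores. Of the gained window peaks, 159 (84.6%) lay over a coding locus. Of the 188, 79 (42.0%) overlapped an H3K4me3 peak of atx3/4/5 and 48 (25.5%) one of wild type. Over all 1360 mutant window peaks these shares were higher, at 57.5% and 56.5%. On chromosome 3, 59 of 309 mutant window peaks were gained (19.1%), and on the other chromosomes 10.7% to 14.1%.

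The 5 strongest gained peaks all lay beside a ribosomal RNA repeat on chromosome 3, around AT3G41979 (14199753 to 14199916), with scores from 1347.23 to 3100. Within 50 kb of that gene the mutant had 13 H3K4me2 peaks, 12 of them gained and 141 to 738 bp wide, and wild type had 1. H3K4me3 peaks in the same stretch numbered 2 in wild type, 10 in atx3/4/5 and 8 in sdg2, so both mutant genotypes differed from wild type there. Each of these counts comes from 1 library. Without this stretch 176 of 1347 mutant window peaks were gained (13.1%).

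Away from the repeat, the strongest gained peaks, a set chosen after its values were seen, included an isolated one on chromosome 3 (504.93) that lay 7404 bp from the nearest gene, and those over AT3G28580 (381.43), CRK39, a cysteine-rich receptor-like kinase gene (347.26), AT2G10940 (340.8) and AT2G04070 (257.97). The peaks over AT3G28580 and CRK39 came with an H3K4me3 peak in atx3/4/5 where wild type had none.

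The share of called genes under the window peaks was close to that of all genes. In the authors' deposited table, 10.3% of the 19021 tested genes had a q under 0.05, 4.92% higher and 5.4% lower in atx3/4/5. Of the 1494 genes under wild-type window peaks 1129 were tested, and the authors' deposited table called 54 higher and 52 lower (9.39%), against 9.22% of genes under arm peaks. The median log2 ratio was -0.04 over the 1000 genes that reached an FPKM of 1 in each genotype and -0.06 over all 16448 such genes. In the windows, 101 of 509 tested genes without a wild-type peak were called (19.8%), 44 higher and 57 lower. Among those that reached an FPKM of 1 in each genotype, 17 of 374 were higher (4.55%) and 50 lower (13.4%). The difference from genes with a peak was not tested.

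The calls were also counted by the fate of the peak. Where every window peak over a gene was absent, the authors' deposited table called 12 genes higher and 23 lower of 273 tested (8.42% lower), and the arms gave 2.95% higher and 9.47% lower. Without chromosome 1 the lower calls were 15 of 213 (7.04%) and without chromosome 3 14 of 216 (6.48%). Where all peaks were kept, 33 were higher and 26 lower of 714. The groups also differed in transcription. The median wild-type FPKM, tested or not, was 1.93 for genes with every window peak absent and 6.23 with all kept. The arms gave 2.82 and 7.15, and the groups were not matched for FPKM. Under gained window peaks 24 genes were called higher and 3 lower of 126 tested (19.0% higher), and under gained arm peaks 119 higher and 45 lower of 1265 (9.41% higher).

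Among genes that reached an FPKM of 1 in each genotype, 10 of 101 under gained window peaks were called higher in the authors' deposited table (9.90%), beside 6.87% under gained arm peaks and 3.83% of all such genes. Called lower were 3 of the 101 (2.97%), beside 5.46% of all such genes. At that level 16 of 227 genes under absent window peaks were lower (7.05%) and 8 higher (3.52%), and under kept peaks 24 were lower and 25 higher of 646. Many of the 24 rises were thus of genes below that level in wild type. Differences between these shares were not tested.

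**Figure D4:**
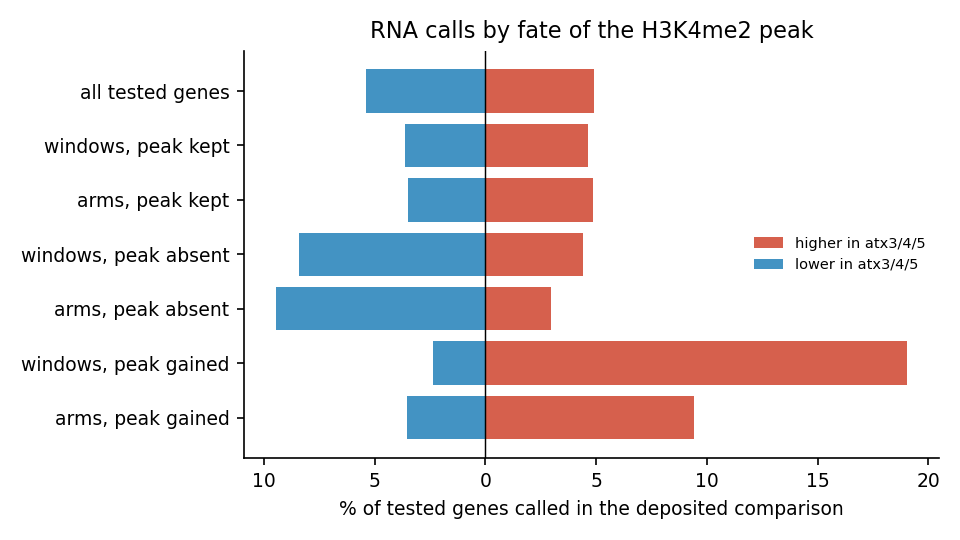
Percent of tested genes called higher (right of 0) and lower (left of 0) in atx3/4/5 in the deposited comparison (x axis), for all tested genes and for genes under H3K4me2 peaks that were kept, absent or gained in the windows and the arms (y axis). Under gained window peaks 19.0% were higher, against 4.92% of all tested genes.

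The genes under gained peaks with the largest called rises are given next. PR1, a pathogenesis-related gene used as a marker of salicylic acid responses, had an FPKM of 19.4 in wild type and 1634 in the mutant, 84.3-fold higher (q = 0.00184 in the authors' deposited table), under a gained peak of score 94.31 at 6241784 to 6242537 on chromosome 2. SDR4, of the short-chain dehydrogenase family, went from 0.426 to 28.5, AT3G28510 from 0.224 to 13.3 and CRK37 from 0.651 to 16.1 in the authors' deposited table (q = 0.00325, 0.00557 and 0.00184). The receptor-like protein gene RLP7 went from 0.0881 to 2.05 (q = 0.0295 in the authors' deposited table). The transcription factor gene NAC016, with an absent and a gained peak over the same locus, went from 0.489 to 7.91.

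The others of the 10 named, the largest by fold of the 24 called rises under gained peaks with no FPKM limit, were AT2G04070 (1.25 to 27.8), AT3G28580 (0.512 to 9.80), AT5G38250 (0.396 to 5.31) and AT4G05540, whose listed value was 0 in wild type and 0.800 in atx3/4/5 in the authors' deposited table. Of these 10 named genes, 9 had no wild-type H3K4me2 peak, the exception being NAC016. The same held for 18 of the 24 called rises and for 95 of all 180 genes under gained window peaks. By definition a gained peak overlaps no wild-type peak, so such a lack is partly built into this set. The 3 called lower were AT5G37360 (149 to 40.5), the calmodulin-like gene TCH2 (132 to 42.9) and the vacuolar sodium-proton exchanger gene NHX1 (68.0 to 26.9).

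**Figure D5:**
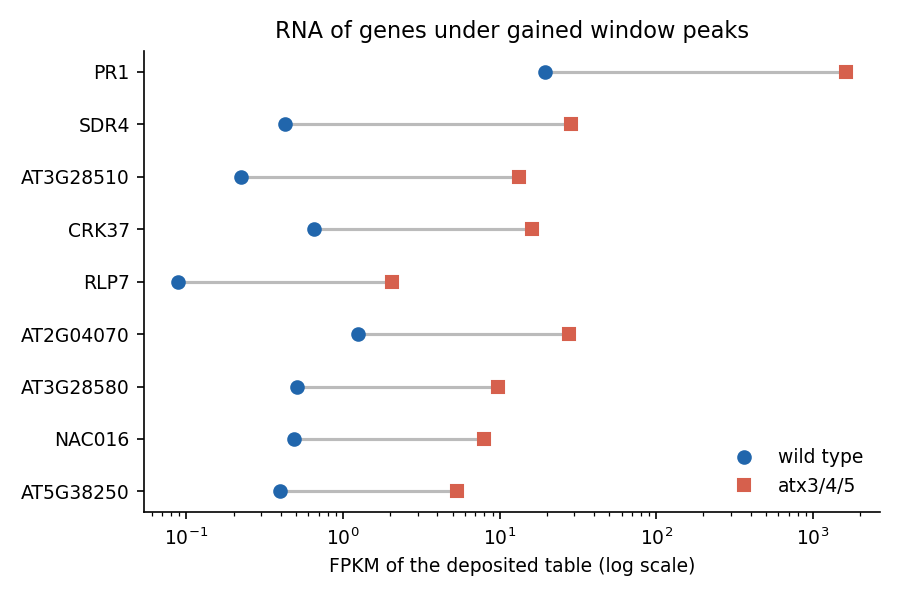
FPKM in wild type (circles) and atx3/4/5 (squares) from the deposited table (x axis, log scale) for the 9 named genes under gained window peaks with an FPKM above 0 in wild type (y axis). PR1 goes from 19.4 to 1634, and every gene shown is called higher.

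Under wild-type window peaks, and among genes that reached an FPKM of 1 in each genotype, the largest rise in the authors' deposited table was that of NIT2, a nitrilase gene, from 2.64 to 130 (49.4-fold, q = 0.00184), although its weak H3K4me2 peak (score 56.44) was absent in the mutant. Next were CRK36 (2.25 to 26.8), the receptor-like protein gene RLP43 (1.04 to 11.1), the cytochrome P450 gene CYP76C6 (1.17 to 9.10), the subtilase gene SBT3.5 (2.08 to 15.4) and CRK4 (9.32 to 68.6). AT1G35710, NUDT6, AT4G03450 and the hexose transporter gene MSS1 completed the 10, at 4.88-fold to 6.62-fold higher. Of the 10, NIT2, CYP76C6 and CRK4 had their only peak absent, 1 had it partly absent and 6 kept it. Of all 1000 tested genes under window peaks with that FPKM limit, 227 had every peak absent, 127 had some absent and 646 kept all. H3K4me3 peaks were present in atx3/4/5 over 9 of the 10 named genes, the exception being NUDT6. In wild type NIT2, CRK36, CYP76C6 and NUDT6 had none. Such peaks are common at this level: by bin above a wild-type FPKM of 1, 69.3% to 95.4% of window coding loci had one in wild type. The atx3/4/5 share over all genes under window peaks was not counted.

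With the same FPKM limit, the largest falls in the authors' deposited table were those of the sugar transporter family gene SFP2 (14.3 to 1.37, 10.5-fold lower, q = 0.00184), AT4G09490 (10.4 to 1.08), AT1G33102 (19.2 to 2.64) and AT1G34060 (49.4 to 6.94). They went on with the allantoinase gene ALN (44.8 to 8.78), AT3G46385 (5.99 to 1.18), the expansin gene EXPA5 (185 to 37.1), the transporter gene UMAMIT47 (44.8 to 9.29), AT1G32690 (7.56 to 1.69) and the arginase gene ARGAH1 (34.0 to 7.97). For 7 of these 10 the peak was absent, and AT1G34060, ALN and ARGAH1 kept it. With that FPKM limit, every window peak was absent for 227 of all 1000 tested genes under window peaks and for 16 of the 43 called lower. A further 6 genes called lower were listed at 0 in the mutant, all under absent peaks, among them AT3G46370, whose peak scored 507.68. With no FPKM limit, every window peak was absent for 273 of the 1129 tested genes and for 23 of the 52 called lower.

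Genes that maintain heterochromatin or remove H3K4me2 were listed apart, and their counts stand beside 10.3% of all tested genes called and 25.6% at an unadjusted p under 0.05. Of 20 names in the first list 17 were matched and 16 tested, and the authors' deposited table called 1 higher, the silencing gene MOM1 (0.535 to 1.84, q = 0.0180), and 0 lower, with 4 at an unadjusted p under 0.05. The median log2 ratio was 0.37 over 14 genes, beside -0.06 over all. Of 10 names of demethylases and related genes 8 were matched and 6 tested, with 0 called by the authors' deposited table and 4 at an unadjusted p under 0.05. Their median was 1.14, with JMJ14 from 2.98 to 7.29 and FLD from 2.89 to 5.72 (q = 0.0704 and 0.183). HTA7, of the heterochromatic histone variant H2A.W, was the only tested member of either list within a window and had no H3K4me2 peak.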

How the data were processed

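Peaks were used as deposited, 1 list per ChIP library. The TAIR10 build, Bowtie 1.0.1, MACS 1.4.2, TopHat2 2.0.10 and Cufflinks 2.2.1 were used, per the submitters' processing notes, which give no roles. The score of each peak is the authors' own, deposited with the lists (lowest value 50), and is used only to rank, bin or filter peaks within a list. FPKM values, p-values and q-values come from the authors' deposited table, which gives 1 value per gene and genotype and so no spread between the 2 libraries. Whether these came from separate plants is not stated, so the p-values may measure technical spread. The deposited log2 column was not used because of spreadsheet errors, and ratios were computed from FPKM without a pseudocount. A gene was called at a status of OK and a q under 0.05.

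Positions are counted from 1 on TAIR10, and gene loci are those of the deposited table. RefSeq (TAIR10.1) gave names and classes only, for 32810 of 33557 genes, and 4249 genes shared a locus with another, so that their values are uncertain. The use of strand and the depth of the libraries are not given in the sources used here. Chromosome ends were taken as the last locus or peak. Overlap means at least 1 bp. Median intervals are exact order-statistic intervals. Arm values were weighted over 10 score bins or over FPKM bins. No column of sample values was left unused (0 columns).

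Named were the 10 strongest and 5 widest wild-type window peaks, the 10 strongest absent, the 5 strongest gained, peaks flanking the longest gaps, the 10 largest called rises and falls among genes reaching an FPKM of 1 in each genotype, called genes under absent or gained peaks (at most 10 each way), the 5 most abundant pseudogenes, and called list members or the 2 of highest FPKM. The windows, members and lists were chosen with earlier results of these data known. Python 3.11.15, numpy 2.4.6, pandas 2.3.3, scipy 1.17.1 and matplotlib 3.10.9 were used, and overlap and weighting were tested on simulated data. Alternatives moved the score minimum, window limits, overlap, gene class and FPKM, or left out a chromosome.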

Additional observations from a re-analysis of the deposited data

How the results depend on the processing

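Of 123 alternative values for 12 results, 94 stayed within the interval of the main value, or within 1.5 times of a count. Only the density ratio could show a change of direction, and none of its 10 alternatives crossed 1. The interval of the weighted difference in absence took in 0, so its direction was not judged. No paired analysis was possible because the deposited table gives 1 combined value per genotype. With peaks of a score of at least 100, the density ratio of windows to arms (0.259) was 0.241, the median width 1174 bp and the median score 240. The share absent was 46.2%, the share over H3K4me3 60.8% and the share of genes with a peak (20.7%) 15.9%. This minimum was applied to every list, so a wild-type peak over a weaker mutant peak counted as absent. In the score bins, where the mutant list was not cut, absence fell with score. With windows narrowed by 0.5 Mb at both ends the density ratio was 0.207, the share of genes with a peak 16.5% and the RNA calls 63 (8.61% of those tested). With windows widened by 0.5 Mb these were 0.330, 26.2% and 165 (9.44%), with 11.8% gained and 96.9% over a locus. Per 100 gene loci the density ratio was 0.331. At an overlap of at least 50% of the peak, 43.1% were absent and 39.9% overlapped H3K4me3. With peaks within 500 bp counted as shared, 32.2% were absent, 10.4% were gained and the weighted difference in absence was 4.68 points. Without chromosome 3 the share over H3K4me3 was 58.7%. The share of genes with a peak was 19.8% without chromosome 1, 21.7% without chromosome 2 and 71.2% at a wild-type FPKM of at least 1. RNA calls numbered 295 at an unadjusted p under 0.05. Of alternatives chosen after seeing the data, the share of genes with a peak was 41.7% among coding genes, calls higher under gained peaks were 10 (24 otherwise) where the FPKM reached 1 in each genotype, and calls lower under absent peaks (23 otherwise) were 15 without chromosome 1 and 14 without chromosome 3. The cause was not tested. With 1 library per genotype and mark, and unknown depth, absence means only that no peak was called.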

Other observations

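A group of cysteine-rich receptor-like kinase genes lies in the windows, and was examined after its values were seen. Of 7 such genes 6 were tested, and the authors' deposited table called 5 higher and 0 lower in atx3/4/5, beside 4.92% higher and 5.4% lower of all tested genes. CRK36, CRK37, CRK38 and CRK39 lie close together in the chromosome 4 window, between 2231957 and 2262138. Their FPKM values in wild type and atx3/4/5 were 2.25 and 26.8 for CRK36, 0.651 and 16.1 for CRK37, 0.123 and 4.67 for CRK38, and 0.185 and 1.98 for CRK39 in the authors' deposited table (q from 0.00184 to 0.0295). CRK36 and CRK38 kept an H3K4me2 peak, and CRK37 and CRK39 had one in the mutant alone. H3K4me3 peaks were absent from all 4 in wild type and present in atx3/4/5 over CRK36, CRK37 and CRK39. CRK40, further along the same window, had its H3K4me2 peak absent in the mutant, and its FPKM was 52.7 and 49.9 (q = 0.936 in the authors' deposited table). The table does not show how reads shared by near-identical family members were counted, so these values are uncertain.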
